A study of Mus musculus with 2 samples.

Results

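Hdac1 and Hdac2 islands were described at 10 genes that place and sustain Gdnf expression and the outgrowth of the ureteric bud: the ligand genes Slit2 and Slit3, the receptor genes Robo1 and Robo2, the integrin genes Itga8 and Itgb1, the integrin ligand gene Npnt, and the Fraser complex genes Fras1, Frem1 and Frem2. They were chosen by name from 21887 protein-coding genes. Chromatin was immunoprecipitated from cultured nephron progenitor cells of wild-type mouse kidneys (E16.5), with an Hdac1 antibody (0.5 µg) in 1 library and an Hdac2 antibody (1 µg) in the other. The files list islands, which are regions of mm10 that the authors' peak caller scored as enriched over background. Each island has a single value, a p-value or a q-value, and a lower value is a stronger island. With no replicate for either antibody, and antibody and amount changing together, no test was made between the libraries. Read depth is unknown, and islands do not measure transcription, so the identity of the cells could not be checked from them.

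Slit proteins are secreted ligands of Robo receptors, and in mice loss of Slit2 or Robo2 leaves Gdnf expressed in too wide a domain of the mesenchyme, with extra ureteric buds. Nephronectin, the product of Npnt, lies in the basement membrane of the ureteric bud and binds the integrin made of the Itga8 and Itgb1 subunits on the mesenchyme, which sustains Gdnf. Fras1, Frem1 and Frem2 form an extracellular complex that holds nephronectin in that membrane, and their loss can leave the kidney unformed, as in Fraser syndrome. Hdac1 and Hdac2 are catalytic subunits of corepressor complexes and lie at both active and repressed genes.

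At 9 of the 10 genes, Hdac1 and Hdac2 islands lay together over a listed start site. A start site here is the first base of a RefSeq transcript in GRCm38.p6 (the mm10 assembly), and 13 were listed for 9 of the 10 genes. Start sites were taken as the measure only after the islands were seen, and the members were chosen with earlier results known. The count planned beforehand, at gene ends, is given in the next paragraph. Both antibodies had an island over at least 1 start site of all 9 genes. Of the 13 listed sites, 11 were covered by an island of each list, the exceptions being the outer sites of Robo2. Over all 21263 listed sites, 60.7% had an Hdac1 island within 1 kb and 31.5% an Hdac2 island. The annotated 5′ end of Robo1 is not a listed site and was bare as well, with the nearest islands 384 kb (Hdac1) and 3.92 kb (Hdac2) away. In the stronger 50% of each list, the Hdac2 islands at the starts of Itga8 and Frem2 were lost. For Fras1 no start site was listed, and both islands lay over the gene end at 96373777 on chromosome 5. Over all 17492 genes with a listed site, 61.4% had an Hdac1 island within 1 kb of a site, 31.7% an Hdac2 island and 31.1% both. Long genes had islands more often, and 8 of the 10 genes span 100 kb or more. Of the 7 such members with a listed site, all 7 had both islands, against 79.9% with Hdac1, 49.6% with Hdac2 and 49.4% with both over the 1866 genes of that length.

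Counted at gene ends, within 1 kb of the first or last base of the annotated gene, the picture was less complete. Hdac1 islands lay at an end of 7 of the 10 genes, against 60.7% of all genes, and Hdac2 islands at an end of 8, against 31.7%. Both lay at an end of 7 genes, against 30.7%. Among the members of 100 kb or more, 5 of 8 had Hdac1 at an end and 6 of 8 had Hdac2, against 74.5% and 45.7% of all genes of that length. For Hdac1 the members were thus close to or below the background. The genes that gained an island when start sites were used were Robo1 and Robo2 in both lists and Slit2 for Hdac1, whose covered start sites lie inside the annotated gene. Over all genes with a listed site, 3.20% had an Hdac1 island at a start site and none at a gene end, and 2.50% had such an Hdac2 island.

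**Figure D1:**
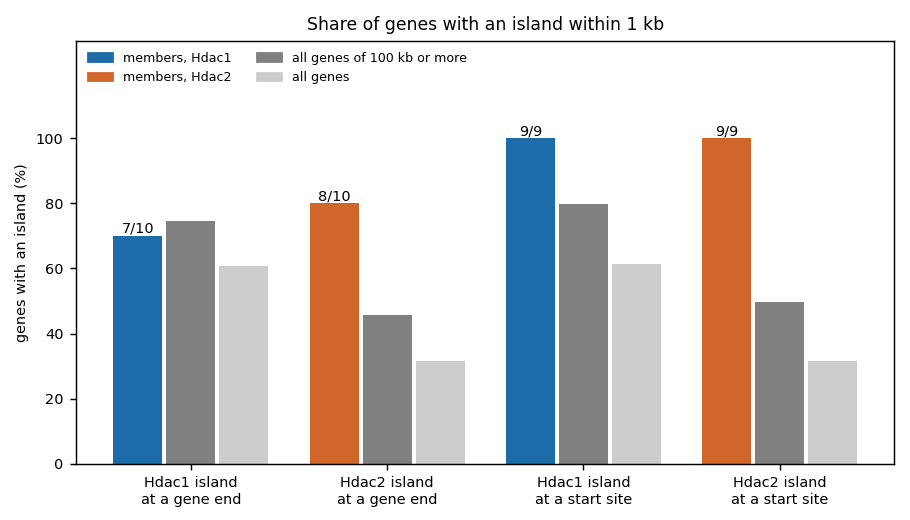
Share of genes (%, y axis) with an island within 1 kb of a gene end or of a listed start site. Coloured bars are the members (count above the bar), dark grey bars all genes of 100 kb or more and light grey bars all genes; at start sites all 9 members counted had both islands, against 61.4% of all genes with a listed site for Hdac1 and 31.7% for Hdac2. The use of start sites was chosen after the islands were seen.

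Of the ligand genes, Slit2 had both islands over its start site at 47983155 on chromosome 5. The Hdac1 island spanned 47982801 to 47987000 (4.2 kb, value 3.47e-116), and the Hdac2 island spanned 47982201 to 47987000 (4.8 kb, value 5.58e-11). They ended at the same position, to the 200 bp step in which island edges fall, and each reached 3.85 kb past the start. The annotated gene begins 5′ of that site, at 47981291, so the Hdac1 island, 1.51 kb from the gene end, lay outside the 1 kb window there while the Hdac2 island, 0.91 kb from it, fell inside. The Hdac1 island ranked in the strongest 5.01% of its list and the Hdac2 island in the strongest 27.4%.

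Beyond its start, Slit2 had few islands. With the island at the start included, its Hdac1 density was near the median of long genes (0.919 per 100 kb of gene, against 1.00). Hdac1 islands of 1.4 kb and 2.6 kb lay 60.2 kb and 251 kb inside the gene, with values of 9.23e-08 and 4.45e-05, and no other Hdac2 island lay in the gene or within 100 kb. The 250 bases before the Slit2 start site are shown because they held 25 CG dinucleotides (in capitals), more than most start sites have, and the only match to TATAAA among the members' sites. From RefSeq (GRCm38.p6), the plus strand of chr5:47982905-47983154 reads as follows.
Slit2 start: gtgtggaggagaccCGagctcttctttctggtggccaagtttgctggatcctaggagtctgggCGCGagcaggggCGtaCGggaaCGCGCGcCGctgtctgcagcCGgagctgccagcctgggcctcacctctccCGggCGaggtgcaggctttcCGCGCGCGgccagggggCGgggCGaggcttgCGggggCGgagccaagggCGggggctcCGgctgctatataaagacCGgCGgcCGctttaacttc
TATAAA was searched on both strands and was present before 11.6% of all 21263 listed start sites.

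Slit3, the other ligand gene, carried the most Hdac1 islands, 18 in the gene and 100 kb either side. Of these 4 were in the stronger 50% of the list, as at Robo1 and Frem1. At Slit3 those 4 include the islands at the ends of the neighbouring genes Pank3 and Fbll1, and at Frem1 the island at Zdhhc21. At Robo1 all 4 lay inside the gene. At its start, which is also the gene end at 35121456 on chromosome 11, a single Hdac1 island of 6.6 kb (1.5e-58) overlapped 2 separate Hdac2 islands, of 2.0 kb over the start (4.35e-14) and of 1.6 kb beginning 3.15 kb further in (1.42e-05). Within the 587 kb of the gene there were 13 more Hdac1 islands, between 0.4 and 4.2 kb wide and none of them stronger than 5.38e-20. Hdac2 had 4 islands there away from the start, and each overlapped an Hdac1 island. The strongest overlapping pair inside the gene lay 184 kb past the start, with values of 5.38e-20 for Hdac1 (4.2 kb) and 2.47e-10 for Hdac2 (2.2 kb).

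Slit2 and Slit3 each host a copy of the miR-218 hairpin, and in vertebrates miR-218 is known to act on Robo1. Its mature sequence is shown because the copies give the same RNA from genes with different islands; capitals mark the seed, bases 2 to 8.
mmu-miR-218-5p: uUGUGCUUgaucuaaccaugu
No island of either list covered a hairpin. The nearest Hdac1 island lay 10.3 kb from Mir218-1 in Slit2 (48223942 to 48224051 on chromosome 5) and the nearest Hdac2 island 237 kb away. For Mir218-2 in Slit3 (35616816 to 35616925 on chromosome 11) the gaps were 25.7 kb for Hdac1 and 24.9 kb for Hdac2.

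The receptor genes Robo1 and Robo2 are both on chromosome 16 and were the longest members, at 1020 kb and 1555 kb. Neither had an island of either list within 1 kb of a gene end. At Robo1 the nearest Hdac1 island to the 5′ end of the annotated gene, at 72027518, was 384 kb away, while an Hdac2 island of 4.2 kb (1.06e-11) lay 3.92 kb outside it. The islands instead lay over the listed start site, well inside the gene at 72663149: 3.0 kb for Hdac1 (4.21e-107) and 2.4 kb for Hdac2 (6.54e-10), both beginning at 72662201. In the 636 kb before this site there were 1 further Hdac1 island and 2 further Hdac2 islands. In the 384 kb after it there were 9 and 6, so most of the islands of Robo1 lay in its 3′ part.

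At Robo2, which is read from the minus strand, 3 start sites were listed and only the innermost had islands. That site, at 74411825, lay under an Hdac1 island of 7.2 kb (6.06e-183), in the strongest 1.42% of the list and the strongest of all Hdac1 islands at the members' start sites. The Hdac2 island there measured 2.2 kb (9.93e-14) and lay wholly inside the Hdac1 island. The outermost site, at 75447293, was 145 kb from the nearest Hdac1 island and 190 kb from the nearest Hdac2 island, and the middle site, at 75092770, was 494 kb and 115 kb away. Of 802 genes with start sites 10 kb or more apart, 61.8% had Hdac1 and 46.3% had Hdac2 at some of their sites but not at all, so this choice among sites was common.

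The 250 bases before the 3 Robo2 sites and the Robo1 site are shown so that the covered and bare sites can be compared. Capitals mark CG dinucleotides, and the sequences are from RefSeq (GRCm38.p6). They are the minus strand of chr16:75447294-75447543, chr16:75092771-75093020 and chr16:74411826-74412075 for Robo2 and the plus strand of chr16:72662899-72663148 for Robo1.
Robo2 outermost start, no island: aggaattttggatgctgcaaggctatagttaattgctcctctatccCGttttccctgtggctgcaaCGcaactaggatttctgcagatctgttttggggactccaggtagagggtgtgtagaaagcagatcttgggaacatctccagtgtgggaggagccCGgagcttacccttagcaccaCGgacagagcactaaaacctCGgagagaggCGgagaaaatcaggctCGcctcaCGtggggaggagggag
Robo2 middle start, no island: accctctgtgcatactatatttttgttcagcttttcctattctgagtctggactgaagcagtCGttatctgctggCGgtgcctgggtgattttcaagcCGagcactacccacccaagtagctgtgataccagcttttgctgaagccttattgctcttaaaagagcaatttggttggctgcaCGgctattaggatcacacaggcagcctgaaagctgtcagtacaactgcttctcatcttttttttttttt
Robo2 innermost start, both islands: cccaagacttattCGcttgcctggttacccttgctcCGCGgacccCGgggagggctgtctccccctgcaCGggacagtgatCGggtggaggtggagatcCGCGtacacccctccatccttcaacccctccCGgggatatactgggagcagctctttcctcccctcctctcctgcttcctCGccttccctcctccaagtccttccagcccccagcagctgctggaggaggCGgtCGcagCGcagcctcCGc
Robo1 start, both islands: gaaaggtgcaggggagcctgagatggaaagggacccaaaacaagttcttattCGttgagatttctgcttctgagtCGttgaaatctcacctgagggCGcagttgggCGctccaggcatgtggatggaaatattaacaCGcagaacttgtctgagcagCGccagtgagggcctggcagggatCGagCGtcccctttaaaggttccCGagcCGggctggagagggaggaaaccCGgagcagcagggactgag
The covered Robo2 site had 14 CG and the covered Robo1 site 11, and the bare Robo2 sites had 8 and 4. Covered sites of other members had counts as low, 8 at Frem2 and 7 and 4 at Frem1. The median over all listed start sites was 10.

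The next islands of Robo2 lay 5′ of the innermost site, in what is an intron or exon of the longer transcripts. Within the 681 kb between the innermost and middle sites there were 7 further Hdac1 islands, all in the 187 kb nearest the innermost site, and 4 further Hdac2 islands. Among them an Hdac2 island of 2.0 kb (74513601 to 74515600) had a value of 6.16e-27, in the strongest 1.96% of the Hdac2 list, and was stronger than the Hdac2 island at the start site. The Hdac1 island of 2.6 kb that contained it had a value of 5.16e-41. Between the middle and outermost sites, a stretch of 355 kb, neither list had an island. In the 520 kb after the innermost site there was a single weak Hdac1 island (0.00592) and no Hdac2 island.

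Robo1 had a similar intronic or exonic pair 22.3 kb past its start. The Hdac2 island there (2.8 kb, 6.48e-16) ranked in the strongest 8.81% of its list, above the Hdac2 island at the start, and lay inside an Hdac1 island of 3.2 kb (3.02e-22). Further pairs with both edges within 400 bp of each other lay 135 kb and 144 kb past the start. The hairpin of miR-691, inside Robo2, was 64.9 kb from the nearest Hdac1 island and 69.3 kb from the nearest Hdac2 island.

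**Figure D2:**
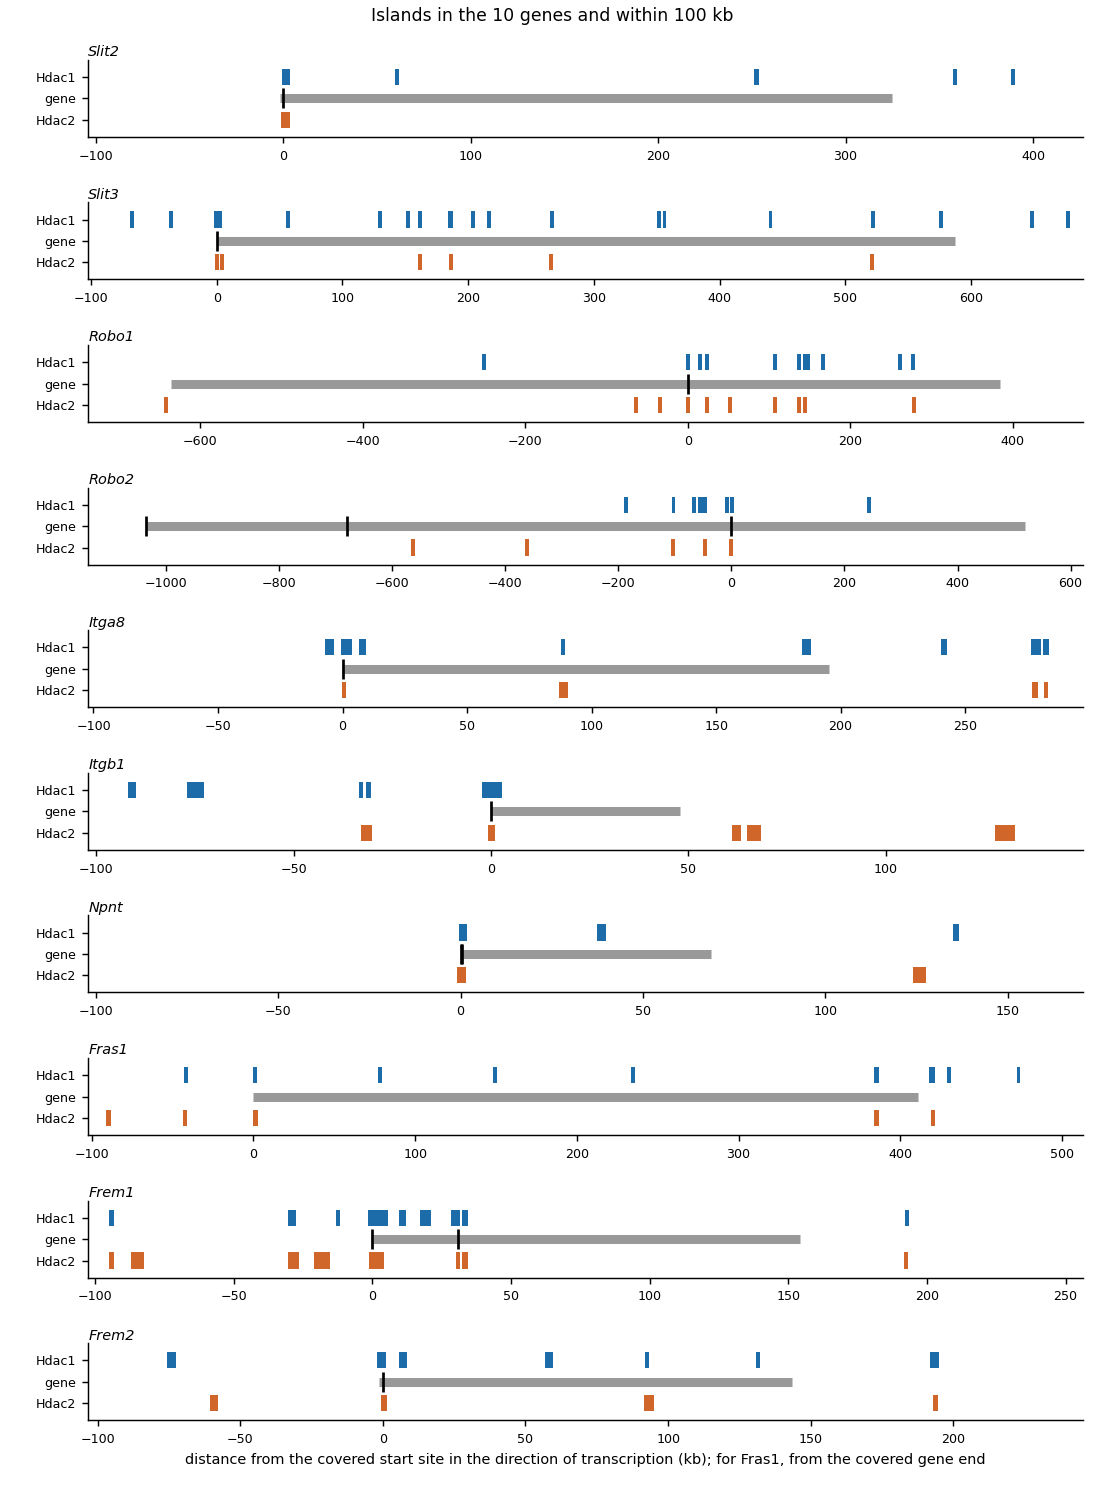
Islands of Hdac1 (above the gene bar) and Hdac2 (below) in each gene and 100 kb either side, by distance in kb from the outermost covered start site in the direction of transcription (Fras1: from the covered gene end). Grey bars are annotated genes, black ticks listed start sites, and islands under 0.4% of the panel are widened to be visible. At Robo1 and Robo2 the covered start lies well inside the gene, with some other islands far from it, and the outer starts of Robo2 are bare.

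Itga8, the integrin subunit that gives the nephronectin receptor its specificity, had both islands at its start site at 12301944 on chromosome 2. The Hdac1 island measured 4.4 kb (8e-59), from 12298201 to 12302600, and the Hdac2 island 1.2 kb (1.52e-07), from 12300801 to 12302000. The Hdac2 island was one of the weaker at a start, at 59.9% of its list. A pair of stronger Hdac2 islands lay 81.6 kb and 86.4 kb beyond the 3′ end of the gene, with values of 6.17e-18 (2.2 kb) and 3.47e-16 (1.4 kb), at 6.08% and 8.37% of the list. Each lay inside an Hdac1 island, of 4.0 kb (1.14e-41) and 2.4 kb (3.84e-38), and no protein-coding gene had an end within 1 kb of them.

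Itgb1, the subunit shared by many integrins, carried islands over its start, of 5.0 kb with Hdac1 (4.36e-94) and of 1.6 kb with Hdac2 (1.03e-10), at 128685654 on chromosome 8. It was the only member with no further island inside the gene in either list. Outside it, an Hdac2 island of 3.0 kb (1.37e-06) lay 30.1 kb upstream and overlapped 2 Hdac1 islands, of 0.8 kb and 1.2 kb. The 3 Hdac2 islands downstream, 13.0 kb, 16.8 kb and 79.8 kb from the gene, had no Hdac1 island over them.

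Npnt had the fewest Hdac1 islands, 3 in the gene and 100 kb either side, with 2 for Hdac2. Its listed start sites at 132950291 and 132949814 on chromosome 3 lay under a shared pair of islands of nearly equal width, 2.4 kb for Hdac1 (4.19e-43) and 2.6 kb for Hdac2 (1.07e-09). An Hdac1 island of 2.4 kb (5.15e-08) lay 37.0 kb past the start with no Hdac2 over it.

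Among the Fraser complex genes, Fras1 had islands of almost the same outline over its gene end at 96373777: 2.8 kb for Hdac1, from 96373401 to 96376200 (4.03e-96), and 3.0 kb for Hdac2, from 96373401 to 96376400 (2.05e-10). A second pair with edges within 400 bp of each other lay near the other end of the 411 kb gene, from 96757401 to 96760800 for Hdac1 (1.47e-10) and from 96757601 to 96760600 for Hdac2 (3.91e-08). The 3 other Hdac1 islands inside Fras1, of 0.6 to 1.2 kb, had no Hdac2 over them.

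Frem1 carried broad islands at its outer start and a second pair at its inner start. At 83052166 on chromosome 4 the Hdac1 island measured 7.2 kb (6.11e-53) and the Hdac2 island 5.4 kb (5.94e-12). At the inner site, 83021102, they measured 3.2 kb (1.66e-22) and 1.0 kb (8.31e-10). Both libraries thus had islands at all listed sites of Frem1; of the 802 genes with sites 10 kb or more apart, 21.4% had Hdac1 at all of them and 5.99% had Hdac2. Further in from the inner site, an island from 83017601 to 83019800 had the same edges in both lists, to the 200 bp step in which edges fall. Its values were 1.8e-08 for Hdac1 and 8e-05 for Hdac2. Upstream of the gene, an Hdac2 island of 4.0 kb (4.52e-21) stood 25.9 kb away in the strongest 3.81% of its list, overlapping an Hdac1 island of 2.8 kb (2.34e-52).

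At Frem2, both lists had an island over the start at 53657355 on chromosome 3, of 3.2 kb with Hdac1 (1.25e-35) and of 2.2 kb with Hdac2 (1.07e-07). These were among the weaker islands at a start, at 29.2% of the Hdac1 list and 58.1% of the Hdac2 list. The Hdac2 island ended 0.59 kb short of the annotated gene end. Inside the gene 4 further Hdac1 islands (1.0 to 3.0 kb) and 1 further Hdac2 island (3.4 kb, 1.39e-05) were listed. The Hdac2 island overlapped the Hdac1 island of 1.2 kb lying 92.2 kb past the start.

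**Figure D3:**
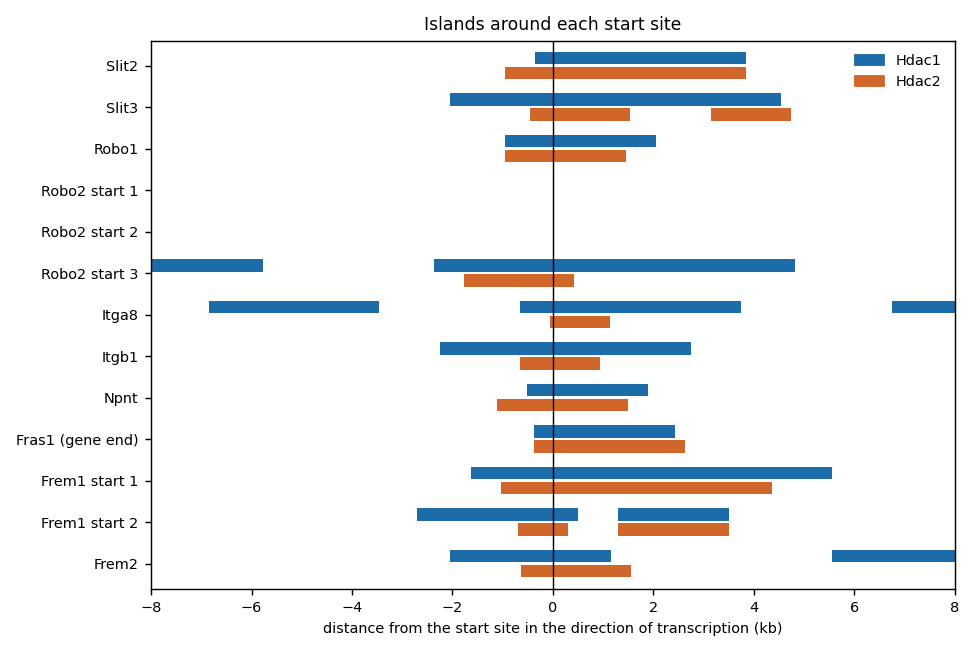
Islands within 8 kb of each start site, by distance (kb) in the direction of transcription, with Hdac1 above Hdac2 in each row and start sites numbered from the outermost inwards (the 2 Npnt sites, under 1 pair of islands, share a row). Robo2 starts 1 and 2 have no island, and at the other rows an island of each list crosses the line at 0.

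Across the members, Hdac1 islands at the start were the wider of the pair in most cases. Of 11 pairs at start sites and at the covered end of Fras1, the Hdac1 island was wider in 8 (72.7%) and narrower in 3, at Slit2, Npnt and Fras1. The Hdac2 island lay wholly inside the Hdac1 island in 7 (63.6%). Over 4955 such pairs at all listed sites, the Hdac1 island was wider in 66.5% and enclosed the Hdac2 island in 52.4%, so the members were near the background. Hdac1 islands at the members' start sites ranged in width between 2.4 and 7.2 kb, with a median of 4.3 kb. Hdac2 islands there ranged between 1.0 and 5.4 kb, with a median of 2.2 kb.

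Ranks within the lists differed by place more for Hdac1 than for Hdac2. The 10 Hdac1 islands at members' start sites had a median rank of 17.6% of the list, where a low rank is strong, and the 74 elsewhere 67.7%. The whole Hdac1 list gave 22.5% at start sites and 64.0% elsewhere. For the members only the gene's own listed sites counted, so islands at the Fras1 end and at neighbouring genes fell under elsewhere. For the whole lists every listed site counted, and islands at any distance from a gene were included. The 10 Hdac2 islands at start sites had a median rank of 32.4%, and the 40 elsewhere 56.1%, where the whole Hdac2 list gave 51.8% and 49.4%. In all 8 members with a listed site and several Hdac1 islands in the gene or within 1 kb of it, the strongest was at a start site, against 74.5% of 3586 such genes. For Hdac2 this held at 4 of 6 members, against 41.5% of 1539 genes, and the exceptions were Robo1 and Robo2.

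**Figure D4:**
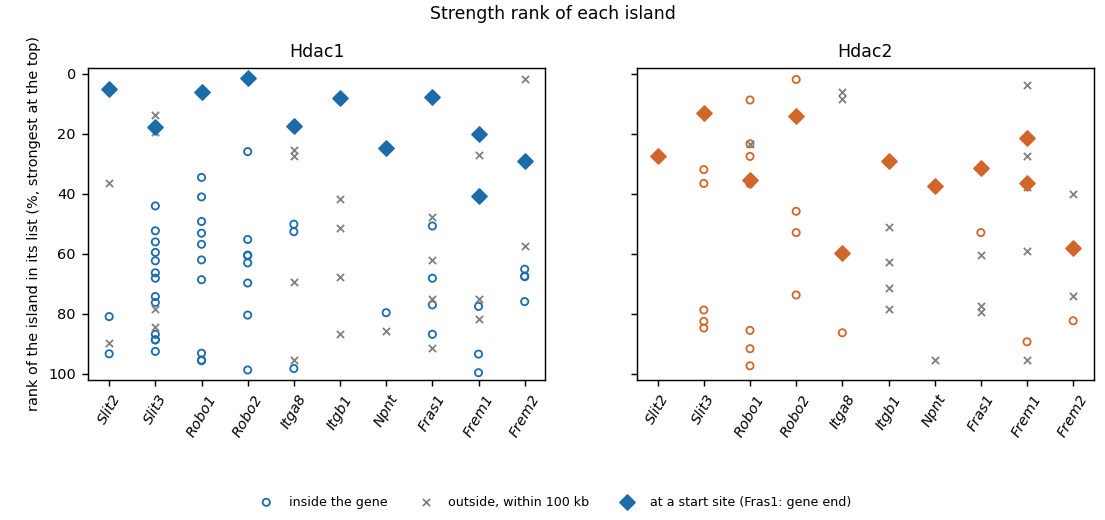
Rank of each island within its own list (y axis, % of the list, strongest at the top) by gene, for Hdac1 (left) and Hdac2 (right). Diamonds are islands at a start site (for Fras1 the gene end), circles other islands inside the gene and crosses islands outside it within 100 kb; Hdac1 diamonds stand above the circles of their gene, and some Hdac2 circles of Robo1 and Robo2 stand above the diamond.

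In all, the genes and the 100 kb either side held 84 Hdac1 islands and 50 Hdac2 islands. Of the Hdac1 islands 36 (42.9%) shared at least 1 bp with an Hdac2 island, against 39.8% of the whole list. Of the Hdac2 islands 36 (72.0%) overlapped Hdac1, against 59.4% of the whole list. The whole-list shares here and below were not limited to islands in genes or within 100 kb of one, so the sets are unlike. All 10 Hdac1 islands at start sites overlapped Hdac2, where 49.3% of such islands did in the whole list. Away from start sites the share was 35.1% among the members and 35.1% in the whole list. The split was not alike, as members' islands were sorted by their own gene's listed sites and the whole list by all listed sites. Islands at neighbouring genes and at the Fras1 gene end thus counted as away from start sites among the members. For Hdac2, all 10 islands at start sites overlapped Hdac1, against 98.2% in the whole list, and 65.0% of those elsewhere did, against 46.5%. All 10 genes had an island of each list in the gene body, against 65.5% of all genes for Hdac1 and 38.4% for Hdac2. The 8 members of 100 kb or more all had both, against 89.7% and 77.8% of genes of that length. These counts include islands at a start site or gene end that reach into the gene. At Itgb1 in both lists, and at Slit2 and Npnt for Hdac2, there was no other island in the gene. All 10 genes also had islands of each list in the gene or within 100 kb, as did 85.4% of all genes for Hdac1 and 85.5% for Hdac2.

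Per 100 kb of gene, islands in the gene body were densest at Frem2 and Frem1 and sparsest at Robo2 for Hdac1. Frem2 had 3.46 Hdac1 islands per 100 kb, Frem1 3.23, Npnt 2.92, Slit3 2.38, Itgb1 2.09, Itga8 2.05, Fras1 1.22, Robo1 1.08, Slit2 0.919 and Robo2 0.579. For Hdac2 the values ran between 0.306 at Slit2 and 2.09 at Itgb1. The median of the 8 members of 100 kb or more was 1.63 for Hdac1 and 0.952 for Hdac2, against 1.00 and 0.710 over the 2429 genes of that length. The values of the short genes Itgb1 and Npnt rest on 1 or 2 islands each. Islands at a start site or gene end are included, and they raise the value more in a shorter gene. At Itgb1 in both lists, and at Slit2 and Npnt for Hdac2, the island at the start was the only one counted.

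The number of CG dinucleotides before the start site differed widely among members that all had islands. It was 35 at Slit3, 25 at Slit2, 21 at Itgb1, 21 and 23 at Npnt, 18 at Itga8 and 8 at Frem2. Frem1, at 7 for the outer site and 4 for the inner site, had islands of both lists although few CG were present. Among the 3443 listed sites with 5 to 9 CG, 54.7% had Hdac1 within 1 kb and 19.5% Hdac2, and among the 7170 with 0 to 4 CG, 12.9% and 5.90%. With 20 or more CG the shares were 98.7% and 64.6%. Other motifs, searched on both strands, were GGGCGG, present at Slit2, Slit3, Itgb1 and the outer Npnt site and at 42.6% of all sites, CCAAT, present at Frem2 and at 35.4%, and CACGTG, present at the outermost Robo2 site and at 6.63%. GGGCGG holds a CG that the first count includes. The outer Frem1 site is shown as a site with few CG (capitals) under broad islands, from the minus strand of chr4:83052167-83052416.
Frem1 outer start: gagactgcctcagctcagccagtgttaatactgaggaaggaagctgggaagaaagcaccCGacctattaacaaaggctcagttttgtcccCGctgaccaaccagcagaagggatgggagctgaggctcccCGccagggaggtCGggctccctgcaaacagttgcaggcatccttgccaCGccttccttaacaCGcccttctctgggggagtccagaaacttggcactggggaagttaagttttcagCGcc

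**Figure D5:**
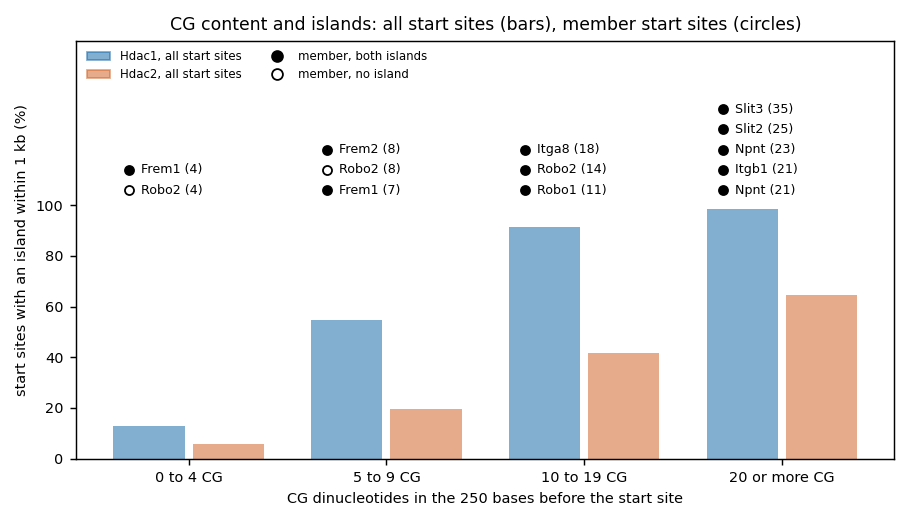
Share of all listed start sites (%, y axis) with an island within 1 kb, by the number of CG dinucleotides in the 250 bases before the site, for Hdac1 (left bar) and Hdac2 (right bar). Circles above the bars are the members' sites with their CG count in brackets, filled where both islands were present and open where there was none; the open circles are the outer Robo2 sites, with 4 and 8 CG.

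Other genes of these pathways were counted at gene ends for 4 lists with 44 genes. Of 11 genes of Slit and Robo signalling, 8 had Hdac1 and 6 had Hdac2, led for Hdac1 by Srgap2, a GTPase-activating protein of the Slit and Robo pathway (listed at 0, 6.0 kb), Myo9b (1.31e-166) and Arhgap39 (2.98e-163). All of these had Hdac2 as well. Of the closest relatives of the members, Robo3 had a weak Hdac1 island (3.8 kb, 6.3e-10) and no Hdac2 at an end, and Slit1 and Robo4 had neither. Enah, with no island at a gene end, carried both at a listed start site, Hdac1 with 5.4 kb (8.08e-146) and Hdac2 with 3.8 kb (4.71e-16), and Abl1, with Hdac1 alone at an end, had Hdac2 at a start site (0.8 kb, 3.54e-11).

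The Fraser complex partners all had Hdac1, at Grip1, which carries Fras1 and Frem2 to the cell surface (1.28e-82), Vwa2 (1.83e-21) and Frem3 (5.27e-06), and Grip1 alone had Hdac2 (1.4e-09). Of 17 integrin partners, ligands and adhesion genes 15 had Hdac1 and 10 had Hdac2. Vtn, the vitronectin gene, had the lowest Hdac1 value (4.08e-153) without Hdac2. Ilk, the integrin-linked kinase gene (2.55e-146), had Hdac2 as well (3.34e-21), and Tln1, the talin gene (5.32e-146), had none. Egfl6, the closest relative of Npnt, and Spp1 had no island at an end. All 13 genes of the list on Gdnf, its receptors and its regulators had Hdac1 and 12 had Hdac2 at an end, and the exception, Pax2, had Hdac2 at a start site (7.4 kb, 1.06e-13); Gdnf, Eya1, Sall1, Foxc1 and Spry1 were listed at 0 for Hdac1, a value that no island at the members reached. The background for these counts is the 60.7% of all genes for Hdac1 and 31.7% for Hdac2 given above.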

How the data were processed

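Per the submitters' processing notes, reads were processed on build mm10 with SICER, bedtools 2.17, SAMtools 1.3.1, BWA 0.7.5a and FastQC. The sources used here do not give the background library, the settings of SICER or the depth. SICER joins enriched windows into islands, so edges are coarse, in steps of 200 bp here. Per the labels, 500 pg of DNA was amplified for 12 cycles or more, so reads need not be independent molecules. The deposited files hold 30182 Hdac1 and 20307 Hdac2 islands, each with 1 p-value or q-value by the authors' caller, all below 0.1, which was used only to rank islands within a list. Positions are 1-based.

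Genes (protein-coding, chromosomes 1 to 19, X and Y) and start sites came from RefSeq tables of GRCm38.p6, without exons, so exonic and intronic islands could not be separated. The start-site table is not complete, and its use was chosen after the islands were seen. An island counted at a gene end or start site if it came within 1 kb. The members and lists were chosen with earlier results of these data known. Named genes were the members, the 3 genes of each list with the lowest Hdac1 value at an end (with ties), and genes with an end within 1 kb of an island near a member; other genes of the lists were named after their values were seen. Counts were checked on simulated data: all 200 genes given an island were recovered among 21887 for each simulated library. Python 3.11.15, numpy 2.4.6, pandas 2.3.3 and matplotlib 3.10.9 were used. Control immunoprecipitations with IgG and H3K4me3 antibodies, named in the labels, were not analysed here. Alternatives were a stricter list, other windows, merged islands, stricter overlap and a shorter distance.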

Additional observations from a re-analysis of the deposited data

How the results depend on the processing

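With the stronger 50% of each list, 26 of 84 Hdac1 islands and 25 of 50 Hdac2 islands were left in the genes or within 100 kb, with 15 Hdac1 and 15 Hdac2 islands that overlapped the other list. In this stricter list Hdac1 was kept at an end of all 7 genes, and Hdac2 was lost at Itga8 and Frem2, leaving 6 with Hdac2 and 5 with both. By start site (Fras1 by its end) Hdac1 was kept at 10 of 10 and Hdac2 at 8 of 10. The count of Hdac1 islands in the gene or within 100 kb was 4 at Slit3, against 18 in the full list. With 0.5 kb windows 7 genes had Hdac1 and 6 had Hdac2, with 5 kb windows 8 and 9, and with start sites (chosen after seeing the data, Fras1 by its end) 10 and 10. The share of all genes was not counted under the stricter list, these windows or this start-site rule. These counts therefore show only how the members' own counts moved, with no background beside them. Counts under merged islands, stricter overlap, islands wholly inside genes and 50 kb distances stayed within 1.5 times those reported. No paired analysis was possible because each antibody has 1 library. Without depth, a gene with no island cannot be told from one below detection.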

Other observations

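Some islands within 100 kb of a member lay at the end of a neighbouring gene. The strongest was an Hdac1 island of 3.0 kb (5.04e-173) at the ends of Nhlrc3 and Proser1, 48.5 kb from Frem2, stronger than the Hdac1 islands at Frem2 itself; an Hdac2 island of 2.0 kb (2.3e-06) lay inside it. Near Slit3, Hdac1 islands lay at Pank3 (3.4 kb, 1.23e-54) and Fbll1 (2.0 kb, 2.19e-69), and near Slit2 at Pacrgl (1.0 kb, 9.99e-27), with no Hdac2 over them. Both lists had islands at Zdhhc21, 37.9 kb from Frem1 for Hdac1 (1.4 kb, 5.73e-39) and 37.7 kb for Hdac2 (1.2 kb, 1.33e-07), and at Anxa3, 7.07 kb from Fras1 for Hdac1 (3.6 kb, 7.6e-18) and 7.87 kb for Hdac2 (2.4 kb, 7.31e-06). Of the islands outside the members, 7 of 25 Hdac1 islands and 3 of 18 Hdac2 islands were at such an end. The same share was not counted around other genes, so these counts have no background beside them.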
